A study of Mus musculus with 24 samples.

Results

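T cell receptor (TCR) segment usage was compared between bilateral CT26 tumors harvested on the same day (time-matched) and bilateral tumors harvested at an interval without drug treatment (time-separated). The comparison took every sample labelled time-matched and every time-separated sample with no treatment, which gave 12 of the 24 samples and 6 of the 12 mice of the series. All mice were female BALB/c animals aged 7 to 9 weeks that carried 2 subcutaneous tumors, 1 in each flank, grown from CT26 colon carcinoma cells (genotype label CT26.CL25). Time-matched mice 6, 12 and 14 gave both tumors at euthanasia on day 13. Time-separated mice 4, 17 and 19 had 1 tumor removed by surgery with analgesia on day 9 and gave the other on day 20, 11 days later; these mice were also the study's reference for its decitabine arms. The labels do not tell which tumor of a time-separated mouse was the early one, so the 2 tumors of each mouse were averaged and the mouse was the replicate (n = 3 per group). Harvest day, surgery and interval all differ between the groups and cannot be told apart. The libraries were made from RNA of whole tumors, and since only TCR transcripts were read, the labelled tissue could not be checked against other markers and fewer T cells of a clone cannot be told apart from less TCR RNA per cell.

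A TCR is a pair of chains, α (TRA) and β (TRB), each joined in the thymus from 1 V and 1 J segment, with a D segment between them in the β chain. The joint, with bases trimmed and added at random, encodes the third complementarity determining region (CDR3), the loop that contacts the presented peptide, while the V segment supplies the loops that mainly touch the MHC molecule. Usage of a segment can be read in 2 ways. Its share of counts weighs each clonotype (a CDR3 amino acid sequence with its V and J segment) by its abundance, and its share of clonotypes counts each clonotype once.

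Time-matched libraries were deeper. Retained counts per tumor ranged from 375898 to 610800 (TRB) and from 176171 to 846655 (TRA) in time-matched tumors, against 97815 to 207072 and 73240 to 183066 in time-separated tumors, and single-count sequences took 1.59 to 2.30% and 2.70 to 9.71% of TRB counts. Shares of clonotypes were therefore taken from libraries thinned to a common depth. Counting error was small beside the differences between mice: the widest 95% exact binomial interval of a named segment's share in 1 tumor was 0.582 percentage points (TRB) and 0.634 (TRA). Tumor 2 of mouse 19 stood apart. It held 1421 TRB and 750 TRA clonotypes at the common depth, the fewest of the 12 libraries, and merging sequences that differ by 1 base from a far larger one removed 58.3% of its TRB clonotypes, against 27.8 to 44.9% elsewhere. The fits were also run with mouse 19 represented by tumor 1 alone.

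The largest TRB clonotype of each mouse is shown first, because single clonotypes carried much of the segment usage. Capitals mark the codons between the first 4, which mostly come from V, and the last 5, which mostly come from J.
mouse 6, time-matched, TRBV17 with TRBJ2-1: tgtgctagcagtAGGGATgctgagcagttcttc
mouse 12, time-matched, TRBV13-2 with TRBJ2-5: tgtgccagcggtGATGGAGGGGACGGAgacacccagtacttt
mouse 14, time-matched, TRBV13-1 with TRBJ2-4: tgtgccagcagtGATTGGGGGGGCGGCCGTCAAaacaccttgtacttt
mouse 4, time-separated, TRBV13-3 with TRBJ2-5: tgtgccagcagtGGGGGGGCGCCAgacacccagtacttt
mouse 17, time-separated, TRBV17 with TRBJ2-7: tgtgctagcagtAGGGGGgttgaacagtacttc
mouse 19, time-separated, TRBV17 with TRBJ2-7: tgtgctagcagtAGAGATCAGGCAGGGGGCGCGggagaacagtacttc
They held 56.2, 25.9 and 23.1% of counts (mean of both tumors) in mice 6, 12 and 14 and 5.26, 16.0 and 13.7% in mice 4, 17 and 19. TRBV17 was the V segment of 3 of the 6, once in the time-matched group and in both mice 17 and 19 of the other.

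Among TRB V segments, TRBV13-3 separated the groups in every tumor by its share of counts, and no segment passed the test across all segments. TRBV13-3 is 1 of the 3 segments of the TRBV13 family (Vβ8), one of the most used β families of mouse T cells. Among time-matched tumors its share of counts was 2.16 and 2.09% (mouse 6), 0.850 and 0.827% (mouse 12) and 0.903 and 0.802% (mouse 14). Among time-separated tumors it was 5.48 and 13.9% (mouse 4), 6.91 and 3.29% (mouse 17) and 5.09 and 7.57% (mouse 19). All 6 time-separated tumors lay above all 6 time-matched tumors, which held for 1 of the 25 segments tested. The 2 tumors of a mouse are not independent. Those of time-matched mice differed by 0.0225 to 0.101 percentage points, so this adds little to the comparison of 3 against 3 mice. The mouse means were 1.27 ± 0.739% and 7.05 ± 2.39% (SD, n = 3 mice each), a log2 fold change of 2.51 ± 0.91 (SE, time-separated over time-matched) with an unadjusted p of 0.0133 and an edgeR adjusted p of 0.234 over 25 segments. The adjusted p was 0.0278 with DESeq2 and 0.0224 without mouse 6, and over every setting tried it ran from 0.0224 to 0.791. Trimmed mean scaling, which sets the bulk of segments level between groups, left a log2 fold change of 1.26, and leaving out each mouse's largest clonotype left 1.42. With mouse 19 by tumor 1 alone it was 2.39. In the 6 decitabine mice, also time-separated, the share ranged from 2.12 to 10.8% with a median of 5.10%.

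The TRBV13-3 share did not rest on a single sequence shared among mice. Its largest clonotype differed in each time-separated mouse in J segment and CDR3.
mouse 4, TRBV13-3 with TRBJ2-5: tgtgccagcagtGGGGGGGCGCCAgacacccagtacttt
mouse 17, TRBV13-3 with TRBJ2-3: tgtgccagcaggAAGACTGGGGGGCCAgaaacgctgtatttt
mouse 19, TRBV13-3 with TRBJ2-1: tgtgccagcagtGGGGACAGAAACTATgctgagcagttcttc
These held 5.26, 2.44 and 3.35% of counts in mice 4, 17 and 19, while the largest TRBV13-3 clonotypes of mice 6, 12 and 14 held 0.798, 0.0641 and 0.0770%. Counted once per clonotype, TRBV13-3 took 6.08 ± 1.09% of time-matched and 8.12 ± 1.64% of time-separated clonotypes, and the mice overlapped (log2 fold change 0.43 ± 0.26, edgeR adjusted p = 0.721, or 0.13 with sequences that differ by 1 base merged).

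**Figure D1:**
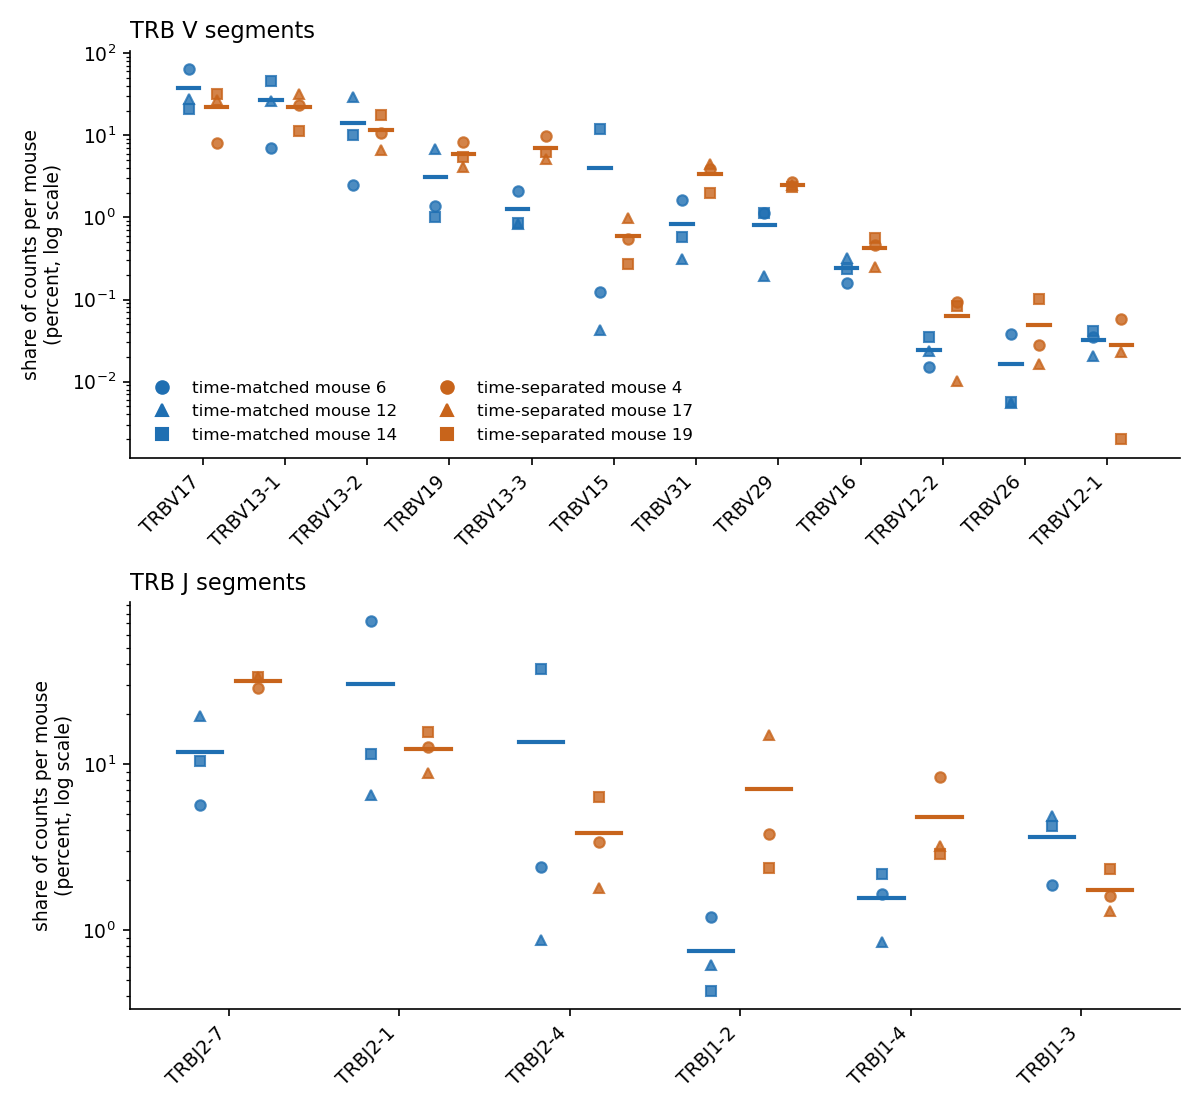
Share of TRB counts (percent, log scale) of 12 named V and 6 named J segments in each mouse. Points are mice (mean of 2 tumors) and bars are group means of 3 mice; TRBV13-3, TRBV31, TRBJ2-7 and TRBJ1-2 show no overlap between the groups, whereas TRBV17 and TRBV13-1 overlap.

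The other TRBV13 segments and TRBV17 overlapped between the groups. The whole TRBV13 family took 11.7, 56.3 and 57.3% of counts in mice 6, 12 and 14 and 43.7, 43.6 and 35.0% in mice 4, 17 and 19, means of 41.8 ± 26.0% and 40.7 ± 4.99%. The time-matched mice thus bracketed the time-separated ones. TRBV13-1 (Vβ8.3) ranged from 7.09 to 46.4% in time-matched and from 11.1 to 31.9% in time-separated mice, and TRBV13-2 (Vβ8.2) from 2.51 to 29.2% and from 6.60 to 17.5%. TRBV17 (Vβ9) took 63.8, 27.7 and 20.8% of counts against 8.03, 26.9 and 31.9%. For TRBV13-2 the sign of the log2 fold change turned from -0.23 to 0.82 when each mouse's largest clonotype was left out; the largest clonotype of mouse 12 carried 88.5% of that mouse's TRBV13-2 counts.

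TRBV31 and TRBV29 had larger shares of counts in all 3 time-separated mice, without passing the test. TRBV31, the single segment that lies downstream of the J clusters in inverted orientation, took 1.64, 0.311 and 0.577% against 3.84, 4.42 and 1.98% (log2 fold change 1.93 ± 0.91, edgeR adjusted p = 0.234). The mouse 19 value is the mean of 3.61% (tumor 1) and 0.358% (tumor 2), the latter inside the time-matched range, and the log2 fold change was 2.22 with tumor 1 alone, 0.83 under trimmed mean scaling and 1.15 without each mouse's largest clonotype. TRBV29 took 1.13, 0.192 and 1.13% against 2.68, 2.49 and 2.37% (log2 fold change 1.47 ± 0.88, edgeR adjusted p = 0.322). Its mouse 19 value is the mean of 4.33% (tumor 1) and 0.424% (tumor 2), the latter again inside the time-matched range, and the log2 fold change was 1.94 with tumor 1 alone, 0.36 under trimmed mean scaling and 0.84 without each mouse's largest clonotype. TRBV19 overlapped, at 3.07 ± 3.26% and 5.89 ± 2.09%, and its log2 fold change of 0.85 turned to -0.89 under trimmed mean scaling.

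Segments on a list of those deleted in BALB/c mice by endogenous retroviral superantigens (TRBV26, TRBV12-1, TRBV12-2, TRBV16 and TRBV15) were rare with 1 exception. Such superantigens bind whole Vβ families and remove most T cells that carry them in the thymus. Together the list took 0.373, 0.415 and 12.2% of counts in mice 6, 12 and 14 and 1.18, 1.27 and 1.02% in mice 4, 17 and 19 (two-sided exact permutation p = 1). The value of mouse 14 was TRBV15 at 11.8%, 93.0% of it in a single clonotype. TRBV26 was detected in mouse 19 in tumor 2 alone (0.202%), and its log2 fold change of 2.00 was 0.02 with mouse 19 by tumor 1 alone. By clonotypes the list took 2.54, 3.13 and 8.47% against 2.40, 2.10 and 1.64%, higher in all 3 time-matched mice (4.71 ± 3.27% and 2.05 ± 0.387%, two-sided exact permutation p = 0.1, the smallest that 3 against 3 mice can give). Single tumors overlapped, with 2.76% in tumor 2 of mouse 4 and 2.43% in tumor 1 of mouse 6. Mouse 14 held 405 TRBV15 clonotypes, against 28 and 34 in mice 6 and 12 and 40, 34 and 19 in mice 4, 17 and 19. Merging sequences that differ by 1 base moved the TRBV15 log2 fold change by clonotypes from -1.80 to -1.08. TRBV16 carried part of the list's difference, with 1.31, 1.84 and 1.56% of clonotypes against 0.943, 0.863 and 0.821%, which did not overlap (log2 fold change -0.75 ± 0.27, unadjusted p = 0.0254, edgeR adjusted p = 0.534). TRBV16 by counts went the other way, 0.239 ± 0.0812% against 0.420 ± 0.156%, with overlap, and its log2 fold change of 0.64 turned to -0.84 under trimmed mean scaling and was 1.25 with mouse 19 by tumor 1 alone.

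Across the 25 TRB V segments tested by share of counts, 0 (0%) passed an edgeR adjusted p of 0.05, 3 had an unadjusted p under 0.05, DESeq2 called 2 and limma on log2 shares called 0. The mice did not overlap for 5 segments (20%) higher in the time-separated group and for 0 (0%) higher in the time-matched group. Means were higher in the time-separated group for 19 of the 25. Shares add to 100%, and this split depended on the scale. Fitted folds were positive for 72% of segments as shares (median log2 fold change 0.91) and for 44% (median -0.47) after trimmed mean scaling. By share of clonotypes, 0 of 21 segments passed in the edgeR fit, 1 had an unadjusted p under 0.05, and DESeq2 and limma called 0. Mice did not overlap for 0 segments higher in the time-separated and 2 (9.52%, TRBV16 and TRBV12-1) higher in the time-matched group. Positive folds made up 52.4% of these segments, or 38.1% after trimmed mean scaling.

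Among TRB J segments, TRBJ2-7 took a larger share in every time-separated tumor by both readings. By counts the time-matched tumors gave 5.66 and 5.61% (mouse 6), 21.2 and 17.6% (mouse 12) and 11.9 and 8.98% (mouse 14), and the time-separated tumors 33.7 and 23.4% (mouse 4), 30.9 and 35.7% (mouse 17) and 31.2 and 35.2% (mouse 19). The lowest time-separated tumor, 23.4%, lay above the highest time-matched one, 21.2%. Means were 11.8 ± 6.98% and 31.7 ± 2.71% (log2 fold change 1.44 ± 0.83, edgeR adjusted p = 0.339). Without each mouse's largest clonotype the log2 fold change was 0.46, the largest clonotypes of mice 17 and 19 both being TRBJ2-7, and under trimmed mean scaling it was 0.68.

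Counted once per clonotype, TRBJ2-7 gave 15.7 and 14.0% (mouse 6), 19.9 and 18.9% (mouse 12) and 16.2 and 15.3% (mouse 14) in time-matched tumors, and 23.0 and 21.5% (mouse 4), 21.2 and 22.7% (mouse 17) and 21.5 and 24.1% (mouse 19) in time-separated tumors. Means were 16.7 ± 2.40% and 22.3 ± 0.425%, again with no tumor overlapping. The log2 fold change was 0.41 ± 0.17 with an unadjusted p of 0.0496 and an edgeR adjusted p of 0.263 over 12 segments. The adjusted p ran from 0.00351 (without mouse 12) to 0.575 over the settings tried, and merging sequences that differ by 1 base left a log2 fold change of 0.18. The 6 decitabine mice ranged from 16.2 to 24.7% of clonotypes with a median of 21.2%.

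**Figure D2:**
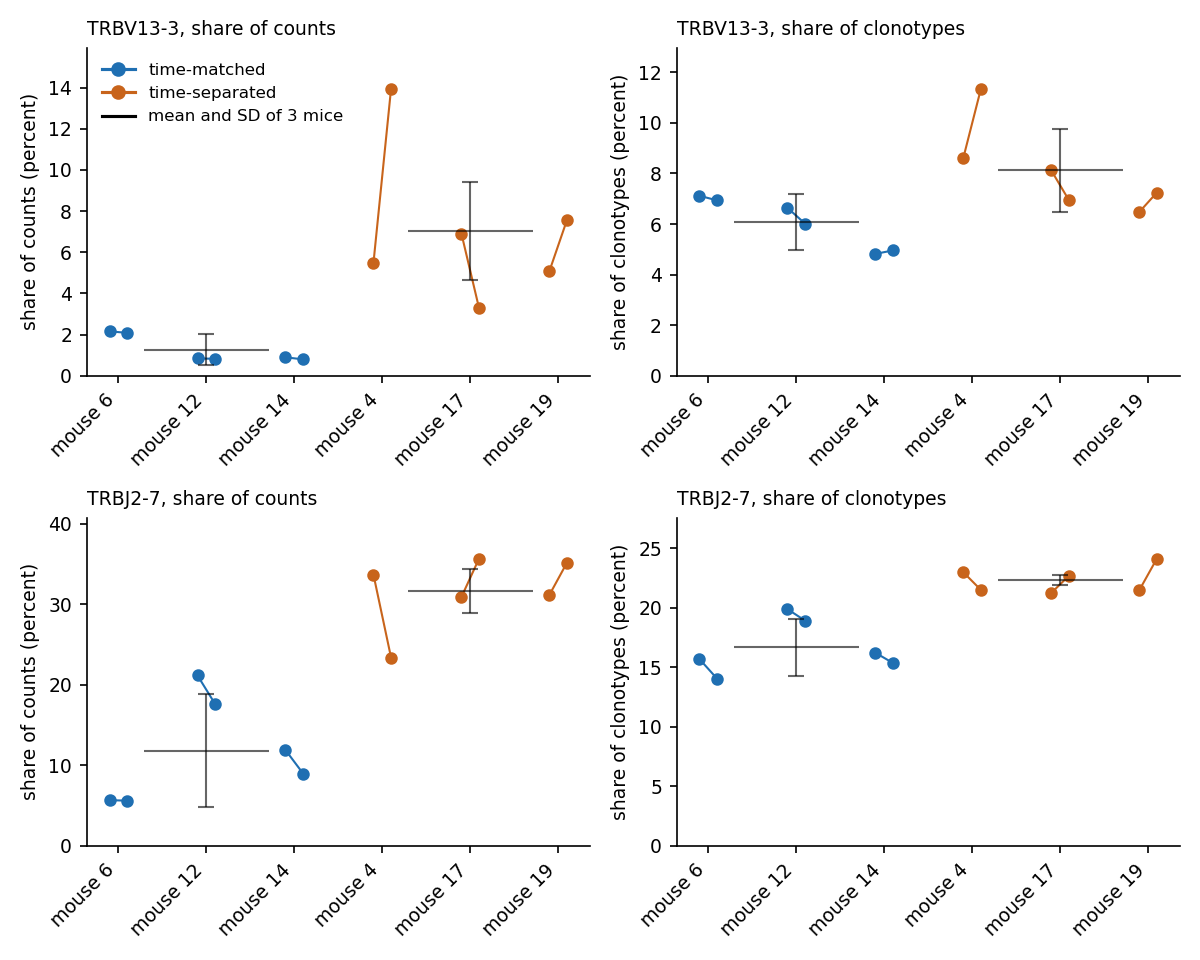
Share of TRB counts and of TRB clonotypes (percent) of TRBV13-3 and TRBJ2-7 in each of the 12 tumors. Lines join the 2 tumors of a mouse and black marks give the mean ± SD of 3 mice; TRBJ2-7 lies between 5.61 and 21.2% of counts in time-matched tumors and between 23.4 and 35.7% in time-separated tumors.

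TRBJ1-2 showed the largest fitted fold among TRB J segments and rested largely on mouse 17. Its share of counts was 1.11 and 1.28%, 0.624 and 0.614%, and 0.521 and 0.346% in the tumors of mice 6, 12 and 14, and 1.93 and 5.69%, 16.8 and 13.0%, and 2.91 and 1.82% in those of mice 4, 17 and 19. No tumor overlapped (0.750 ± 0.398% and 7.03 ± 6.86%, log2 fold change 3.24 ± 1.10, unadjusted p = 0.0113, edgeR adjusted p = 0.136). DESeq2 gave an adjusted p of 0.00566, and the log2 fold change was 2.00 without mouse 17 and 2.06 under trimmed mean scaling. In mouse 17, 87.2% of the TRBJ1-2 counts were in the clonotype below, which joined TRBV13-1.
mouse 17, TRBV13-1 with TRBJ1-2: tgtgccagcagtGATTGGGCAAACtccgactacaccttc

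TRBJ1-4 was higher in the 3 time-separated mice by counts (1.56 ± 0.663% and 4.82 ± 3.10%, edgeR adjusted p = 0.339; log2 fold change 1.56, or 0.40 under trimmed mean scaling), although tumor 2 of mouse 19, at 0.673%, lay below every time-matched tumor. TRBJ1-3 was lower in them by clonotypes, at 5.19, 6.26 and 5.38% against 3.58, 3.54 and 3.08% (log2 fold change -0.64 ± 0.20, unadjusted p = 0.0164, edgeR adjusted p = 0.196), and merging sequences that differ by 1 base left -0.37. TRBJ2-1 ranged from 6.49 to 72.7% of counts in time-matched mice and from 8.85 to 15.5% in time-separated mice, and TRBJ2-4 from 0.879 to 37.3% and from 1.79 to 6.37%, with overlap in both. The 2 J clusters, each behind its own D segment, had like totals: TRBJ2 took 77.8 ± 9.38% of time-matched and 74.3 ± 4.50% of time-separated counts (two-sided exact permutation p = 0.7) and 70.0 ± 0.776% and 71.4 ± 3.46% of clonotypes (p = 0.9 in the same exact test).

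Of 12 TRB J segments by share of counts, 0 (0%) passed in the edgeR fit, 2 had an unadjusted p under 0.05, DESeq2 called 1 and limma 0. Mice did not overlap for 3 (25%) higher in the time-separated group and 0 higher in the time-matched group. By clonotypes 0 passed in the edgeR fit, 2 had an unadjusted p under 0.05, DESeq2 and limma called 0, and 1 (8.33%) did not overlap in each direction. Positive folds made up 50% of J segments by counts, and on 41.7% after trimmed mean scaling.

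The 4 TRB V-J pairs with the widest gaps between group means were each led by 1 or 2 mice. TRBV17 with TRBJ2-1 took 59.8, 3.18 and 0.960% of counts in mice 6, 12 and 14 and 5.92, 0.291 and 5.27% in mice 4, 17 and 19. TRBV17 with TRBJ2-7 took 0.0488, 1.29 and 5.37% against 0.250, 23.7 and 16.0%. The groups overlapped in both. TRBV17 with TRBJ1-1 took 1.96, 17.6 and 13.7% against 1.58, 2.54 and 2.95%, and TRBV13-1 with TRBJ2-4 took 1.48, 0.0502 and 24.6% against 0.645, 0.240 and 1.01%. TRBV17 thus paired most with TRBJ2-1 or TRBJ1-1 in the time-matched mice and mouse 4, and with TRBJ2-7 in mice 17 and 19. Of 219 pairs tested, 0 (0%) passed in the edgeR fit, 41 had an unadjusted p under 0.05, DESeq2 called 14 and limma 2. Mice did not overlap for 54 pairs (24.7%) higher in the time-separated group and for 2 (0.913%) higher in the time-matched group. Positive folds made up 73.5% of the pairs as shares and 47.5% after trimmed mean scaling.

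Some TRBV17 CDR3s recurred in all 6 mice under different codes. One with TRBJ1-1 had 3 main nucleotide sequences and was the largest TRBV17 with TRBJ1-1 clonotype in 4 mice. The amino acid sequence of mouse 6's leading clonotype, with TRBJ2-1, was written mainly by 3 nucleotide sequences across the mice.
mice 6, 4 and 17: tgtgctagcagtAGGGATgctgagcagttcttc
mice 12 and 19: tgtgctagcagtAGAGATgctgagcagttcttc
mouse 14: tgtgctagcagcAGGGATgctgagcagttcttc
It held 56.2, 0.804 and 0.914% of counts in mice 6, 12 and 14 and 0.0214, 0.00426 and 2.76% in mice 4, 17 and 19, and it was the largest TRBV17 with TRBJ2-1 clonotype in 3 of the 6 mice. In mice 4 and 17 it rested on 74 and 17 counts of the same sequence that dominated mouse 6, and that sequence appeared in 20 of the 22 libraries of other mice at up to 0.137% of counts. The source of these low counts was not tested.

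Time-matched TRB repertoires had lower effective numbers of V segments by share of counts, with no mouse overlapping, and overlapped with time-separated ones by share of clonotypes. The effective number (the exponential of the Shannon entropy of the shares, equal to the number of segments if all were used alike) was 4.28, 5.31 and 5.26 V segments by counts in mice 6, 12 and 14 and 11.5, 8.15 and 8.54 in mice 4, 17 and 19. Means were 4.95 ± 0.580 and 9.39 ± 1.83 (two-sided exact permutation p = 0.1, the smallest possible, adjusted p = 0.275 over 33 TRB measures). By clonotypes they were 12.7 ± 0.637 and 12.7 ± 1.70 (exact permutation p = 1). The normalized Shannon index of clonotypes (1 where all are equally abundant) was 0.422 ± 0.0375 and 0.618 ± 0.0446, with no mouse overlapping (exact permutation p = 0.1, adjusted p = 0.275). Effective J numbers were 5.30 ± 1.81 and 7.64 ± 0.837 by counts, with no overlap, and 9.72 ± 0.193 and 9.57 ± 0.572 by clonotypes. Tumor 2 of mouse 19, with 5.29 effective V segments, lay within the range of the time-matched tumors (4.23 to 5.46), while the other 5 time-separated tumors lay between 7.66 and 12.8. With mouse 19 by tumor 1 alone the difference in effective V segments by counts was 5.53, and with the 6 decitabine mice added to the time-separated group it was 3.55 (two-sided exact permutation p = 0.0136 over 220 assignments).

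The size classes of clonotypes went with this. Clonotypes above 10% of a tumor's counts held 56.2, 56.6 and 43.2% of TRB counts in mice 6, 12 and 14 and 0, 29.0 and 9.86% in mice 4, 17 and 19. Clonotypes of 1 to 10% held 25.9 ± 10.3% and 46.3 ± 8.84%, those of 0.1 to 1% held 7.70 ± 3.30% and 15.7 ± 1.58%, and those of 0.1% or less held 14.4 ± 2.53% and 25.0 ± 5.75%. The 10 largest clonotypes together held 76.9 ± 3.15% of time-matched and 51.3 ± 5.24% of time-separated counts. The mice did not overlap in any of these 5 measures, each with an exact permutation p of 0.1. Single tumors overlapped in 3 of them, the classes of 1 to 10%, 0.1 to 1% and 0.1% or less. Tumor 2 of mouse 19 held 72.5% in its 10 largest clonotypes against 30.1% in its tumor 1, beside 73.4 to 80.9% in time-matched tumors. In all, 12 of 33 TRB measures and 1 of 27 TRA measures did not overlap between the groups. Apart from TRBV31 by counts and the superantigen list by clonotypes, the 12 all measure how evenly counts spread over clonotypes or segments. They are therefore not separate results. Random assignment of 6 mice to 2 groups of 3 gives no overlap with a probability of 0.1 per measure. The TRA classes overlapped, with 33.4 ± 26.4% and 9.30 ± 8.11% of counts above 10% (p = 0.3 in the same exact test).

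**Figure D3:**
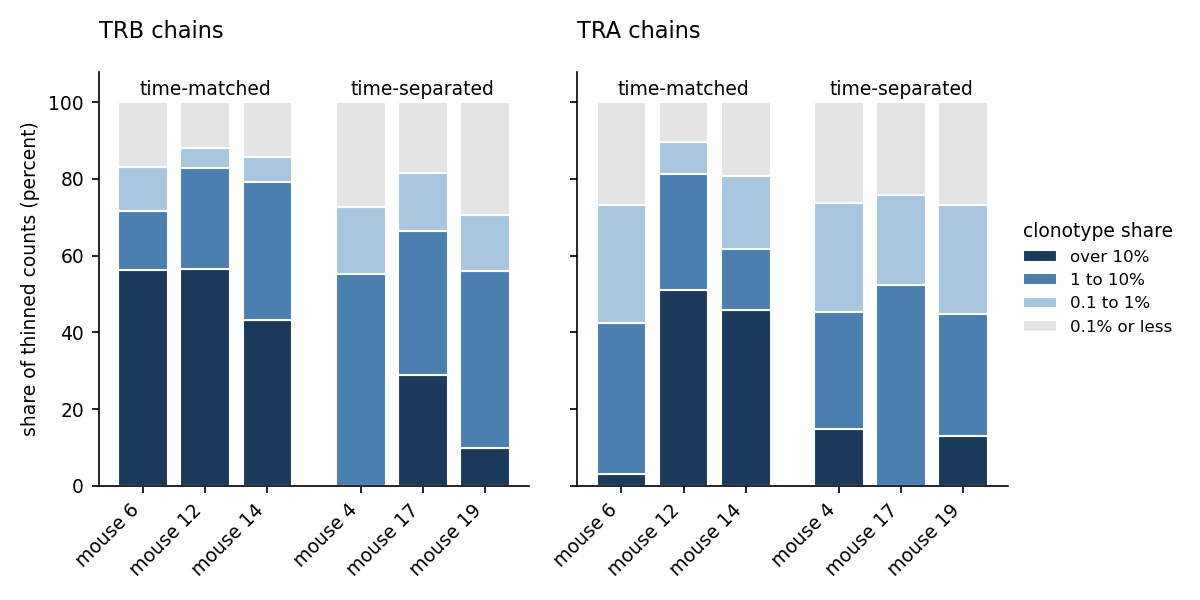
Share of counts, thinned to a common depth (percent, stacked to 100) held by clonotypes of 4 size classes in each mouse, TRB and TRA side by side, mean over repeated thinning draws and 2 tumors, so that a clonotype near a class limit is split between classes. Clonotypes above 10% hold 43.2 to 56.6% of TRB counts in the time-matched mice and 0 to 29.0% in the time-separated mice.

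Mean TRB CDR3 length did not separate the groups. Weighted by counts it was 12.2, 13.6 and 14.0 residues in mice 6, 12 and 14 and 13.2, 12.7 and 14.3 in mice 4, 17 and 19 (13.3 ± 0.927 and 13.4 ± 0.828, two-sided exact permutation p = 0.9), and the sign of the difference changed between settings. The mouse values followed their leading clonotypes. CDR3s of 11 residues held 63.5% of counts in mouse 6, those of 16 residues held 49.4% in mouse 14 and 28.4% in mouse 19, and those of 20 residues held 7.28% in mouse 19 and at most 0.00128% in the other 5 mice. CDR3s of 17 residues or more took 3.32 ± 1.02% of time-matched and 3.59 ± 3.08% of time-separated clonotypes, with overlap (two-sided exact permutation p = 1).

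Within single V segments, length was alike in most mice for TRBV17 and TRBV13-3 and varied between mice for TRBV13-1 and TRBV13-2. Of TRBV17 counts, 96.7, 67.0 and 95.5% had a CDR3 of 11 residues in mice 6, 12 and 14, and 89.4, 98.5 and 20.7% in mice 4, 17 and 19. By counts TRBV17 was thus mostly an 11-residue segment in 5 of the 6 mice, where 1 clonotype of this length held 53.8 to 88.1% of its counts. Of TRBV17 clonotypes, 77.7, 39.0 and 82.1% had 11 residues in mice 6, 12 and 14, and 61.8, 81.9 and 23.5% in mice 4, 17 and 19. Mean length weighted by counts was 13.8, 13.3 and 13.5 residues against 13.1, 13.6 and 13.8 for TRBV13-3, and 14.0, 15.4 and 15.5 against 12.7, 13.3 and 14.6 for TRBV13-1. Of TRBV13-2 counts, 8.55, 0.317 and 77.0% had 10 residues in the time-matched mice and 12.3, 53.3 and 58.7% in the time-separated mice. In mice 14, 17 and 19 the largest TRBV13-2 clonotype had this short loop, with 1 codon between the stretches of V and J shown in lower case.
mouse 14, TRBV13-2 with TRBJ2-1: tgtgccagcggtGGGgctgagcagttcttc
mouse 17, TRBV13-2 with TRBJ2-1: tgtgccagcggtGAGactgagcagttcttc
mouse 19, TRBV13-2 with TRBJ2-7: tgtgccagcggtGATtttgaacagtacttc
They held 4.30, 2.62 and 8.18% of TRB counts.

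In the α chain, mean CDR3 length was 13.8 ± 0.289 residues in time-matched and 13.4 ± 0.180 in time-separated mice by counts (two-sided exact permutation p = 0.2). Over clonotypes it was 13.7 ± 0.0519 and 13.6 ± 0.0719 with no overlap (exact permutation p = 0.1, adjusted p = 0.72 over 27 TRA measures).

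**Figure D4:**
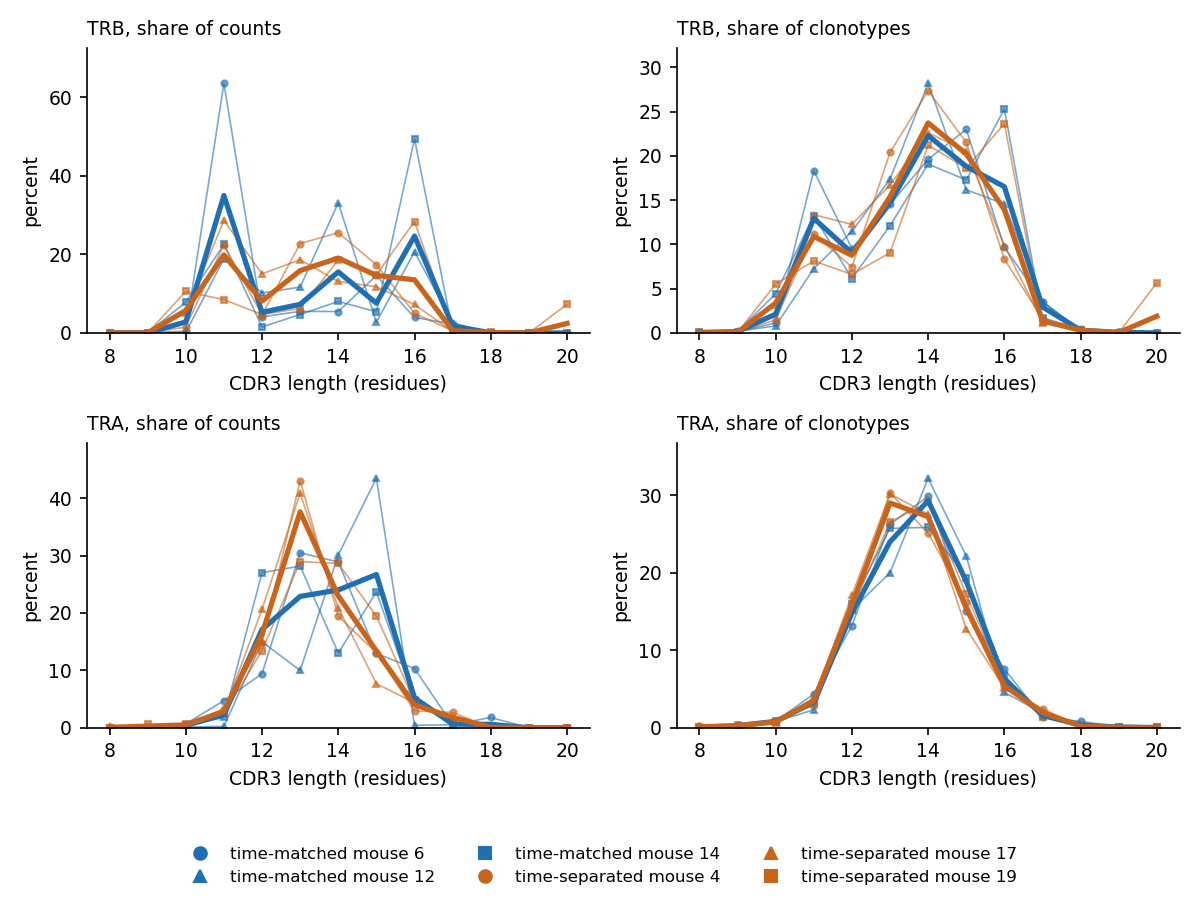
Distribution of CDR3 length (8 to 20 residues) as percent of counts and of clonotypes, TRB and TRA. Thin lines are mice and thick lines group means of 3 mice; the TRB count curves peak at different lengths in different mice, such as 11 residues in mouse 6 and 16 in mouse 14.

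Whole usage profiles differed as much within a group as between groups for V segments. The Bray-Curtis dissimilarity (0 for the same shares, 1 for none in common) of TRB V usage by counts averaged 0.404 over the 9 pairs of mice from different groups and 0.404 over the 6 pairs from the same group, a difference of 0.00018 (one-sided exact permutation p = 0.6). For TRB J usage the difference was 0.0808 by counts and 0.0243 by clonotypes, each with p = 0.1 in the one-sided exact test. The value by counts fell to between -0.0182 and -0.00534 when any time-separated mouse was left out. It rose to 0.155 (exact permutation p = 0.00455, the smallest possible) with the 6 decitabine mice, which were drug-treated, added to that group. Both changes alter how many pairs of each group enter the within-group mean. As the groups spread unlike each other (below), neither value can tell a shift in J usage from unlike spread. For TRA the difference between and within groups was 0.0109 (V) and -0.00486 (J) by counts (exact p = 0.4 and 0.6). The 2 groups spread unlike each other: pairs of time-matched mice averaged 0.509 and pairs of time-separated mice 0.298 for TRB V, 0.620 and 0.255 for TRB J, 0.662 and 0.397 for TRA V, and 0.623 and 0.420 for TRA J.

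The 2 tumors of a mouse went the opposite way. Their TRB V dissimilarity was 0.0354, 0.0586 and 0.0776 in mice 6, 12 and 14 and 0.244, 0.123 and 0.396 in mice 4, 17 and 19 (two-sided exact permutation p = 0.1). The means were 0.0572 in time-matched and 0.254 in time-separated mice, beside 0.509 and 0.298 for pairs of different mice (mean of 2 tumors each) within these groups. They were 0.0584 and 0.199 for TRB J, 0.0899 and 0.402 for TRA V, and 0.0909 and 0.347 for TRA J. The mice overlapped for TRB J alone among these 4, with 0.0800 in time-separated mouse 17 and 0.0894 in time-matched mouse 14 (two-sided exact permutation p = 0.2). Each time-separated mouse value thus averages 2 tumors that were on average less alike, and the part of this averaging in the lower spread between time-separated mice was not tested.

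**Figure D5:**
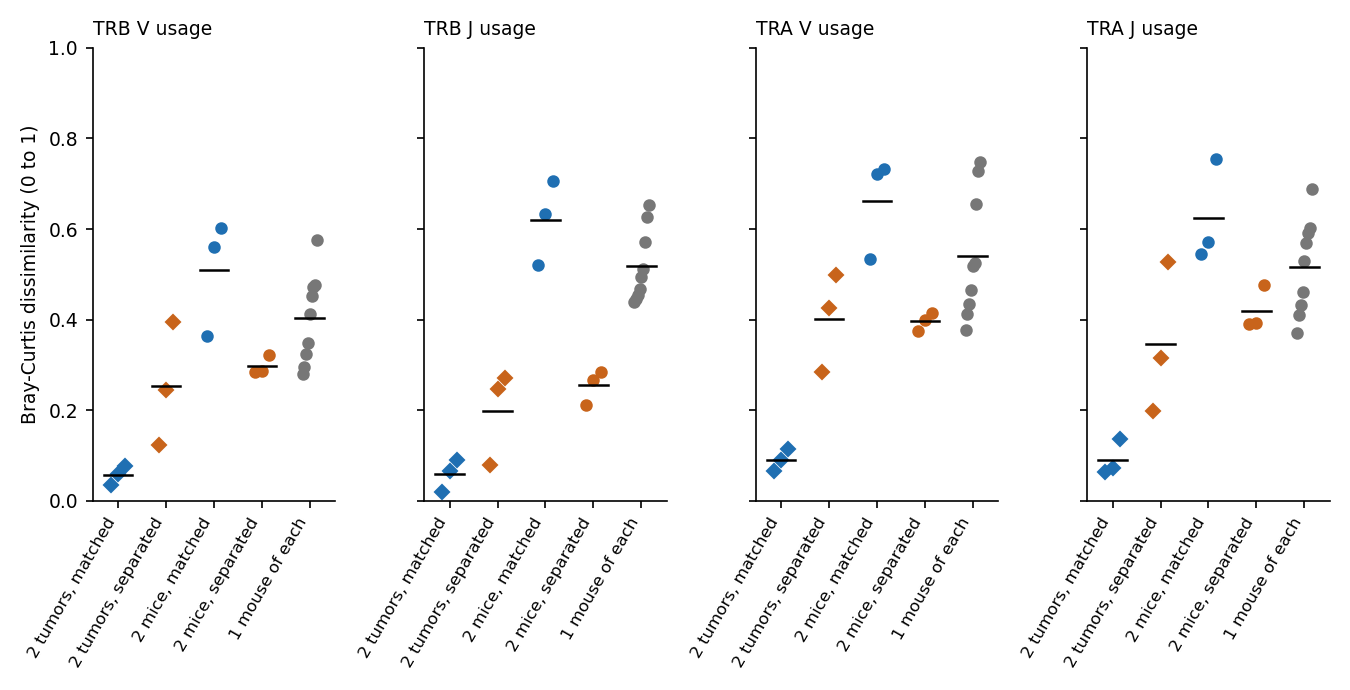
Bray-Curtis dissimilarity of segment usage by share of counts for TRB V, TRB J, TRA V and TRA J. Diamonds are the 2 tumors of 1 mouse, dots are pairs of mice and black lines are means; for TRB V the diamonds lie between 0.0354 and 0.0776 in time-matched mice and between 0.123 and 0.396 in time-separated mice.

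Among TRA V segments by share of counts, TRAV3-3 was higher in all 6 time-separated tumors and TRAV7-1 in all 6 time-matched tumors, neither past the test. TRAV3-3 took 2.87 and 3.07%, 0.741 and 0.586%, and 2.26 and 2.65% in the tumors of mice 6, 12 and 14, against 4.17 and 8.33%, 5.78 and 14.9%, and 6.62 and 7.42% in those of mice 4, 17 and 19 (2.03 ± 1.21% and 7.87 ± 2.16%, log2 fold change 1.88 ± 1.32, edgeR adjusted p = 0.647). TRAV3-3 also took more of the clonotypes in each time-separated mouse, 3.62, 3.42 and 4.35% against 4.96, 7.69 and 6.65% (log2 fold change 0.72). Trimmed mean scaling left a log2 fold change of 0.75 by counts, and merging sequences that differ by 1 base left 0.18 by clonotypes (edgeR adjusted p = 0.822). TRAV7-1 took 2.57 and 3.51%, 9.23 and 9.38%, and 1.75 and 2.17% against 1.02 and 1.08%, 0.346 and 0.183%, and 1.18 and 1.03% (4.77 ± 3.97% and 0.807 ± 0.471%, log2 fold change -2.56 ± 1.35, edgeR adjusted p = 0.431). Trimmed mean scaling gave -5.49 for TRAV7-1. Adding the 6 decitabine mice reduced its log2 fold change to -0.71, and their shares ranged from 1.03 to 7.18%.

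Other TRA V segments also took more of the counts in each time-separated mouse. TRAV6-6 took 3.60, 0.434 and 2.74% against 4.81, 4.92 and 9.03%, TRAV3-1 2.83, 0.284 and 1.29% against 3.23, 2.84 and 4.57%, and TRAV8-1 1.01, 0.190 and 0.524% against 3.37, 1.09 and 2.45%. In these mice the largest clonotype carried 26.1 to 42.7% of TRAV6-6, 16.1 to 50.2% of TRAV3-1 and 17.6 to 39.6% of TRAV8-1. Under trimmed mean scaling their log2 fold changes of 1.43, 1.37 and 1.76 were 0.48, 0.52 and 0.55. Single tumors overlapped between the groups for TRAV6-6, TRAV3-1 and TRAV8-1. The 2 tumors of mice 4, 17 and 19 differed by 2.23, 3.81 and 5.21 percentage points for TRAV3-1. For TRAV8-1 they differed by 4.97, 1.21 and 0.115 points. In mouse 19, TRAV6-6 was 6.45% in tumor 1 and 11.6% in tumor 2. TRAV21/DV12 took 0.402 ± 0.280% and 3.00 ± 3.23% (log2 fold change 2.91, or 1.88 under trimmed mean scaling), and in mouse 17 70.2% of it was 1 clonotype with TRAJ56. TRAV7-4, the V segment with the widest gap between the group means, took 6.43, 43.9 and 10.1% against 14.2, 6.38 and 5.07% and overlapped, as did TRAV7-3 at 4.27, 0.153 and 22.9% against 1.94, 5.85 and 4.52%. Several TRAV genes have near-identical copies in the duplicated part of the locus (names with D or N), so counts split between copies are uncertain.

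TRAV5D-4 was the only TRA V segment past the test, and it rested on mouse 17. Its share was 0.0213 and 0.0238%, 0.00157 and 0%, and 0.0240 and 0.0189% in the tumors of mice 6, 12 and 14, and 0.0175 and 0.0478%, 3.86 and 2.43%, and 0.0344 and 0.0321% in those of mice 4, 17 and 19. Mice 4 and 19 lay close to the time-matched mice. The log2 fold change was 6.20 ± 1.64 (edgeR adjusted p = 0.0139), with 90.6% of the mouse 17 share in 1 clonotype with TRAJ13. The call was lost without mouse 6, 12, 14 or 17, with trimmed mean scaling, with limma and with the decitabine mice added, and DESeq2 gave the segment no adjusted p.
mouse 17, TRAV5D-4 with TRAJ13: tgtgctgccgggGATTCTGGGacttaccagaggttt

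In all, 1 of 75 TRA V segments (1.33%) passed by counts in the edgeR fit, 7 had an unadjusted p under 0.05, and DESeq2 and limma called 0. Mice did not overlap for 10 (13.3%) higher in the time-separated group and 2 (2.67%) higher in the time-matched group. Single tumors did not overlap for 2 higher in the time-separated group, TRAV3-3 among them, and 1 (TRAV7-1) higher in the time-matched group. By clonotypes 0 of 59 passed (edgeR), 6 had an unadjusted p under 0.05, DESeq2 and limma called 0, and 5 (8.47%) and 4 (6.78%) did not overlap. Positive folds made up 68% of TRA V segments by counts and 48% after trimmed mean scaling.

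The single call among J segments of the α libraries, TRDJ1, is given as counts only, because it met the filter on low segments through the time-matched mice alone, which also had the deeper libraries. TRDJ1 belongs to the δ chain, whose genes lie inside the α locus. It had 30 and 0, 22 and 24, and 54 and 0 counts in the tumors of mice 6, 12 and 14 and 0 in all 6 time-separated tumors. Over the group, 130 counts were 0.00540% of time-matched counts, and 0 counts in the time-separated group allow up to 0.000435% (3 counts over the group). The call was lost without the filter, with limma and with the decitabine mice added, and with thinned libraries or without mouse 6, 12 or 14 the segment no longer met the filter.

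The main TRAJ segments overlapped. TRAJ30 ranged from 4.43 to 29.0% in time-matched and from 4.36 to 20.7% in time-separated mice. The upper value was mouse 19, with 6.51% in tumor 1 and 34.8% in tumor 2, and the log2 fold change of -0.55 was -1.19 with tumor 1 alone. TRAJ15 took 2.17, 35.5 and 0.438% against 1.82, 1.75 and 0.447%, and TRAJ33 0.922, 4.02 and 13.6% against 1.18, 0.815 and 2.43%. In mouse 12, 92.6% of TRAJ15 was 1 clonotype with TRAV7-4. TRAJ56 was higher in each time-separated mouse, 1.24, 0.593 and 1.18% against 3.78, 6.02 and 1.37% (log2 fold change 1.77, or 0.63 under trimmed mean scaling, edgeR adjusted p = 0.627), the last share being the mean of 2.12 and 0.623% in the tumors of mouse 19. J segments numbered above 30, the V-proximal part of the locus, took 48.0 ± 25.4% and 55.1 ± 11.5% of counts. By counts 1 of 44 J segments (2.27%, TRDJ1) passed in the edgeR fit, 4 had an unadjusted p under 0.05, DESeq2 called 3 and limma 0, and 4 (9.09%) and 1 (2.27%) did not overlap, higher in the time-separated and time-matched group. By clonotypes 0 of 41 passed (edgeR), 4 had an unadjusted p under 0.05, DESeq2 and limma called 0, and 1 (2.44%) did not overlap, higher in the time-separated group. Positive folds made up 61.4% of J segments by counts and 56.1% by clonotypes, or 40.9% and 41.5% after trimmed mean scaling. Of 911 TRA V-J pairs, 0 passed in the edgeR fit, 66 had an unadjusted p under 0.05, DESeq2 called 16 and limma 0, and 89 (9.77%) and 32 (3.51%) did not overlap in these directions; positive folds made up 66.7%, or 44.9% after trimmed mean scaling.

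The widest TRA pair gaps were single clonotypes of time-matched mice. TRAV7-4 with TRAJ15 took 34.9% of counts in mouse 12 and at most 0.306% elsewhere, TRAV16D/DV11 with TRAJ30 took 19.3% in mouse 12 and at most 0.0509% elsewhere, and TRAV12-1 with TRAJ26 took 13.7% in mouse 14 and at most 0.357% elsewhere. TRAV7-3 with TRAJ30 took 21.4% in mouse 14 and 4.13% in mouse 17.

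The segment pairs of the invariant α chains of unconventional T cells were present in both groups at low shares. TRAV11 with TRAJ18, the chain of natural killer T cells that see lipids on CD1d, took 0.634, 0.0902 and 0.545% of counts against 0.322, 0.318 and 0.913% (two-sided exact permutation p = 0.7), and the same amino acid clonotype was its largest in all 6 mice. Several nucleotide sequences encoded it, of which the one below was the commonest in every mouse and held 62.7, 42.9 and 37.6% of its counts in mice 6, 12 and 14 and 47.8, 43.7 and 46.1% in mice 4, 17 and 19.
natural killer T cell chain, TRAV11 with TRAJ18: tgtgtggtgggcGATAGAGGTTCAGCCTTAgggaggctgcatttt
In mouse 19 the clonotype, all its nucleotide sequences together, held 1.67% of counts in tumor 1 and had 0 counts in tumor 2. TRAV1 with TRAJ33, the segments of the chain of mucosal-associated invariant T cells, took 0.0438, 0.00253 and 0.0256% against 0.0321, 0.0930 and 0.165% (p = 0.2 in the same exact test). These shares cover every CDR3 of the pair. The clonotype that was largest in 4 mice was not found in mouse 4. It held 0.00547% of counts in mouse 17, where another held 0.0865%, and rested on 18 counts in tumor 1 of mouse 12. The mice overlapped for both pairs.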

How the data were processed

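TCR libraries (SMART-Seq Mouse TCR with UMIs, Illumina sequencing) of 12 tumors were analysed from the 24 pairs of clonotype tables of the series. The counts per CDR3 nucleotide sequence were deposited by the authors as output of Cogent NGS Immune Profiler; the methods state an analysis based on molecular identifiers (UMIs) in that software, but the deposited column is named for reads, so whether its counts are molecules is not settled and intervals and floors cover counting error only. Sequences with a stop codon or a count under 2 were removed, as in the study's methods, and counts were summed per CDR3 amino acid sequence, V and J segment. Stop-codon sequences took 7.06 to 9.65% of TRB counts and up to 25.3% of TRA counts. A count of 0 allows up to 3 counts, or 0.000491 to 0.00307% of a TRB library.

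Shares of counts used all retained counts; shares of clonotypes and composition used 20 draws thinned to the smallest library of the series on each chain. The 2 tumors of a mouse were summed for edgeR quasi-likelihood fits (mouse total as offset, Benjamini-Hochberg adjustment over all segments or pairs with at least 10 counts or 5 clonotypes in 3 mice) and averaged elsewhere. Composition measures were compared by two-sided exact permutation over the 20 assignments of 6 mice, and usage profiles by Bray-Curtis dissimilarity. Alternatives were trimmed mean factors (TMM), DESeq2, limma on log2 shares (pseudocount 0.1%), no filter, minimum counts of 1 and 10, thinned or full libraries, leaving out each mouse's largest clonotype or each mouse, and adding the 6 decitabine mice. Merging sequences 1 base from one at least 20 times larger, and mouse 19 by tumor 1 alone, were chosen after seeing the data. Named segments were those past the test, those with the largest differences between means (6 V, 4 J and 4 V-J pairs per chain), those of at least 2% without overlap between mice, and fixed lists; the members and lists were chosen with earlier results of these data known. Python 3.11.15, scipy 1.17.1, R 4.3.3, edgeR 4.0.16, limma 3.58.1 and DESeq2 1.42.0 were used. The fits were tested on simulated counts with a fixed spread between mice that was not taken from these data. Power at the spread of these mice was therefore not assessed.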

Additional observations from a re-analysis of the deposited data

Results flagged for a closer look

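In 9 of 94 groups of 6 tumors tested (each named segment's share of counts in each group), 1 tumor lay far from the other 5 by Dixon's test at the 95% level, where chance gives about 1 in 20 for 6 independent values. The tumors are 2 from each of 3 mice, so this rate is only a guide. All 9 were in the time-separated group, and nothing is read from that split: the 2 tumors of a time-matched mouse were nearly alike, and a tumor with such a partner cannot lie alone. Tumor 2 of mouse 19, the library with the fewest clonotypes, was lowest in TRBV31 (0.358%, next 3.61%) and highest in TRBV26 (0.202%, next 0.0484%), TRAV6-6 (11.6%, next 6.45%) and TRAJ30 (34.8%, next 14.6%). Tumor 1 of the same mouse was highest in TRBJ2-4 (9.49%, next 3.76%) and TRAV11 (1.83%, next 0.432%). Tumor 1 of mouse 4 was highest in TRAV7-4 (23.8%, next 8.53%) and TRAJ49 (21.3%, next 8.87%), and tumor 2 of mouse 17 in TRBV15 (1.59%, next 0.542%). The TRAV7-4 and TRAJ49 values of mouse 4 share a clonotype that joins both segments, at 8.27% of its counts as the mean of its 2 tumors.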

How the results depend on the processing

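The counts of called segments were small under every setting, and most calls changed with the method. By share of counts, DESeq2 called 2 TRB V, 1 TRB J, 14 TRB V-J, 0 TRA V, 3 TRA J and 16 TRA V-J features. TMM factors called 1 TRB J (TRBJ1-3) and 0 TRA V segments. Limma called 2 TRB V-J pairs, 0 TRA V and 0 TRA J segments. Without the filter 9 TRB V-J pairs and 0 TRA J segments were called, and with thinned libraries 0 TRA J segments. With 9 time-separated mice, decitabine mice included, 1 TRB V segment by clonotypes (TRBV15), 2 TRB V-J pairs, 0 TRA V and 0 TRA J segments were called. With mouse 19 by tumor 1 alone, 2 TRA J segments were called (TRAJ23 and TRDJ1). Leaving out 1 mouse in turn gave 0 to 4 TRB V segments (4 without mouse 6, 1 without mouse 19), 0 to 1 TRB J segments (1 without mouse 19), 0 to 3 TRB V-J pairs (3 without mouse 14, 2 without mouse 4 or 19), 0 to 1 TRA V segments and 0 to 2 TRA J segments (2 without mouse 4, 0 without mouse 6, 12 or 14) by counts, and 0 to 3 TRB J segments (3 without mouse 12) and 0 to 1 TRA J segments (1 without mouse 14) by clonotypes.

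Differences between usage profiles (between minus within groups) turned with many settings. Leaving out or adding mice also changes how many pairs of each group enter the within-group mean. TRB V by counts was -0.00143 at a minimum count of 10 and -0.0124 by 1 minus Morisita-Horn, and from -0.0904 to 0.0622 leaving out 1 mouse. TRB V by clonotypes was 0.00633 with mouse 19 by tumor 1 alone and -0.0391 to 0.0150 leaving out 1 mouse. TRB J by counts was 0.155 with 9 time-separated mice and -0.0182 to 0.205 leaving out 1 mouse, and by clonotypes 0.0325 with 9 time-separated mice and -0.000756 by 1 minus Morisita-Horn. TRA V by counts ran from -0.0725 to 0.120 leaving out 1 mouse, and by clonotypes from -0.0183 to 0.0311, with -0.00227 by 1 minus Morisita-Horn. TRA J by counts was 0.0507 with 9 time-separated mice, 0.0266 with mouse 19 by tumor 1 alone and -0.0766 to 0.101 leaving out 1 mouse, and by clonotypes 0.00534 with mouse 19 by tumor 1 alone and -0.0223 to 0.00308 leaving out 1 mouse. The difference in mean TRB CDR3 length by counts (time-separated minus time-matched, in residues) was -0.0902 without each mouse's largest clonotype, -0.0243 with 9 time-separated mice and -0.369 to 0.512 leaving out 1 mouse, and over clonotypes -0.0824 with 9 time-separated mice, -0.0526 with mouse 19 by tumor 1 alone and -0.203 to 0.219 leaving out 1 mouse. The TRB normalized Shannon index, which differed by 0.196 between the groups of 3 mice (exact permutation p = 0.1), differed by 0.148 with 9 time-separated mice (exact permutation p = 0.0136). The cause of these changes was not tested.

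No paired analysis was possible because the groups hold different mice and the labels number no pairs across groups. With 3 mice a group the exact tests cannot go below 0.1, and the time-separated libraries were shallower, which limits rare segments such as TRDJ1.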

Other observations

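The TRAV7 family with TRAJ30 and a CDR3 of 12 residues with a shared ending was found in every mouse and was chosen for description after its values were seen. Together these clonotypes held 2.45, 8.91 and 22.3% of TRA counts in time-matched mice 6, 12 and 14 and 2.60, 3.98 and 3.69% in time-separated mice 4, 17 and 19, means of 11.2 ± 10.1% and 3.42 ± 0.727% (SD, n = 3). The groups overlapped. In the 6 decitabine mice they held 0.129 to 6.68% (2.85 ± 2.60%). They made up 92.9% of the TRAJ30 counts of mouse 14 and 23.5% of those of mouse 19. With TRAV7-3 the same amino acid sequence was the largest TRAV7-3 with TRAJ30 clonotype in 5 of the 6 mice, written by different bases in the V part.
mice 14 and 19, TRAV7-3 with TRAJ30: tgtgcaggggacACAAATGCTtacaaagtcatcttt
mice 6 and 4, TRAV7-3 with TRAJ30: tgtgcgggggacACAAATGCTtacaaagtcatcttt
mouse 17, TRAV7-3 with TRAJ30: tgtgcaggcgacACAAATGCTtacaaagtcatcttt
mouse 12, TRAV7-1 with TRAJ30: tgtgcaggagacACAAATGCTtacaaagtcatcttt

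The same CDR3 amino acid sequence and J segment was listed under 2 V segments, each above 0.5% of counts, in 6 cases, all in time-separated tumors. In tumor 2 of mouse 4 a TRBJ2-1 sequence stood at 2.12% with TRBV29 and 1.46% with TRBV4. In tumor 2 of mouse 19 a TRAJ30 sequence stood at 4.12% with TRAV7-3 and 0.836% with TRAV7-1, and another at 14.3% with TRAV12-2 and 0.669% with TRAV12D-3. The most abundant nucleotide sequence was the same under both V segments in 3 of the 6 cases, all between TRAV12 genes, and differed in the other 3, which were the TRBV29 and TRBV4 case and the TRAV7-3 and TRAV7-1 cases of both tumors of mouse 19. The source of the 3 shared entries was not tested.

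The leading sequence of each mouse, apart from the TRA leader of mouse 19, was also present in libraries of other mice. The TRB leader of mouse 17 was in 9 of 22 other libraries at up to 739 counts (0.767%), and that of mouse 4 in 4 libraries at up to 4 counts. Other TRA leaders were abundant in a library of another mouse. By share, that of mouse 17 reached 6.58% (5734 counts) there, against 7.52% in mouse 17 itself, that of mouse 6 reached 3.24% (3767 counts) and that of mouse 14 reached 4.09% (3565 counts). Those of mice 12 and 4 reached at most 5 and 3 counts, and that of mouse 19 was in 0 of 22.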
